A study of Sus scrofa with 8 samples.

Results

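The heat shock and J-domain chaperone genes were those whose symbol in the peak lists began with HSPA, HSPB, HSPD, HSPE, HSPH, HSP90, DNAJA, DNAJB or DNAJC, or with BAG and a digit. The rule found 37 genes among the 5650 that carried at least 1 peak of N6-methyladenosine (m6A) in at least 1 animal. The animals were 2 Jinhua males, of a Chinese breed with more fat inside the muscle, and 2 Landrace males, of a Danish breed, all 180 days old and with no treatment named in the labels. From the muscle RNA of every pig an input library and a library immunoprecipitated (IP) with an m6A antibody were made, which gives 8 samples in 4 groups. The data are 4 peak lists, 1 per animal, each placing its peaks on 1 Ensembl transcript per gene. The study asked what m6A does in fat deposition within muscle.

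Chaperones bind unfolded or partly folded proteins and let them fold, move across membranes or be handed to degradation. HSP70 proteins (HSPA) do this in a cycle of ATP binding and hydrolysis. J-domain proteins (DNAJ) bring them clients and start hydrolysis, and HSP110 (HSPH and HSPA4) and BAG proteins let the nucleotide go. HSP90 acts later on signalling and structural clients, and small heat shock proteins (HSPB) hold unfolding proteins without using ATP. In muscle, the pair of HSPB8 and BAG3 is known for clearing damaged proteins of the Z-disc. In mRNA, m6A is a mark placed on adenosine that reader proteins bind, and a peak is a stretch where the IP library was enriched over input.

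No read count, enrichment or p-value stands in the lists, and sequencing depth is unknown. Genes without a peak may have been poorly expressed and not unmethylated, and in bulk muscle fewer cells of a type and less RNA per cell cannot be told apart. Whole lists held 3863 and 4468 genes in Jinhua 1 and 2 and 3798 and 3647 in Landrace 1 and 2. Of 12 skeletal muscle markers 9, among them ACTA1, CKM and RYR1, carried a peak in all 4 animals, and MYH4, MB and TNNT3 were not found by symbol. Of markers of other cell types, 3 of 6 for adipocytes were found by symbol, without ADIPOQ, FABP4 and LEP, together with 2 of 3 for endothelium, 3 of 4 for macrophages and 1 of 2 for blood. Adipocyte markers called numbered 3 in each Jinhua list, against 3 in Landrace 1 and 2 in Landrace 2, and macrophage markers 1 in each Jinhua list, against 3 and 2. Their part in the results was not tested.

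More chaperone genes carried a peak in the Jinhua lists than in the Landrace lists. In Jinhua 1 and Jinhua 2, 27 and 34 of the 37 genes were called, against 22 in Landrace 1 and 23 in Landrace 2. The ranges of the breeds did not overlap, and Jinhua 2, the longest list over all genes, stood highest. The means were 30.5 ± 4.95 genes for Jinhua and 22.5 ± 0.707 for Landrace (SD, n = 2 each; two-sided exact permutation test, p = 0.333, the smallest that 2 against 2 animals allow). The difference of 8 genes was 4.5 without Jinhua 2. The ratio of the breed means was 1.36 for chaperone genes and 1.12 for all called genes. The families did not share in this difference alike. Of the 9 DNAJC genes, 4 and 9 were called in Jinhua 1 and 2, against 1 and 3 in Landrace 1 and 2. DNAJC3, DNAJC4 and DNAJC16 became members through Jinhua 2 alone. All 3 HSP90 genes were called in every list. The ratio without the DNAJC genes is not given here.

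Peaks of chaperone genes numbered 49 and 62 in Jinhua 1 and 2, against 45 and 46 in Landrace 1 and 2. Means were 55.5 ± 9.19 peaks for Jinhua and 45.5 ± 0.707 for Landrace (SD, n = 2 each; exact permutation test, p = 0.333). The difference of 10 peaks was 3.5 without Jinhua 2 and 16.5 without Jinhua 1. As a share of all listed peaks, chaperone genes held 0.762% and 0.802% in Jinhua 1 and 2, against 0.695% and 0.745% in Landrace 1 and 2. These shares differed by 0.0616 percentage points (exact permutation p = 0.333), and by 0.0369 points without Landrace 1. Per called gene the order was the other way, with 1.81 and 1.82 peaks in the Jinhua lists and 2.05 and 2 in the Landrace lists. Over all genes the breeds were not parted, with 1.67 and 1.73 peaks per called gene in Jinhua 1 and 2 and 1.70 and 1.69 in Landrace 1 and 2.

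**Figure D1:**
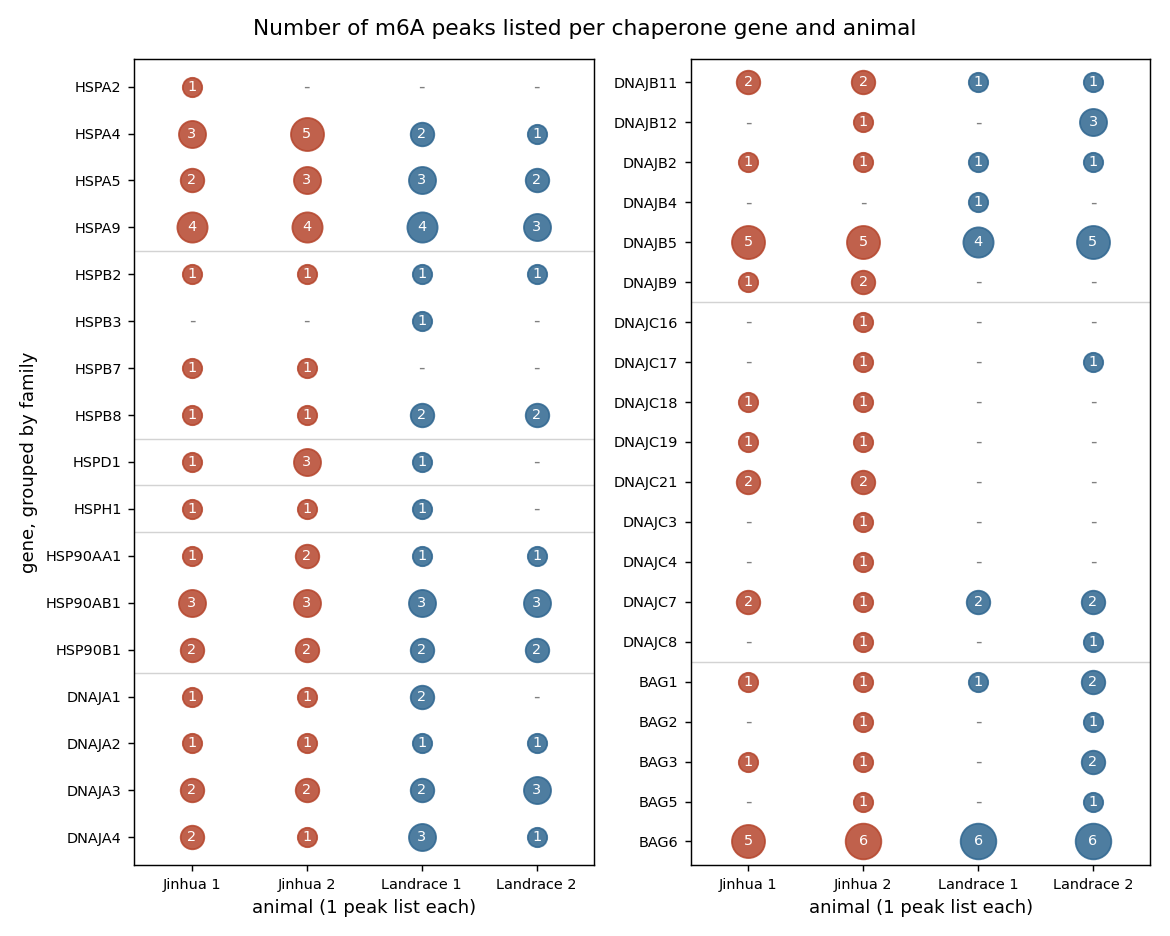
Number of m6A peaks listed for each of the 37 chaperone genes (rows, grouped by family, families divided by lines) in each animal (columns). The number in each circle is the number of peaks, circle size follows it, Jinhua is red and Landrace blue, and a dash marks a gene without a peak in that list. The HSP90 rows are filled in all 4 columns, and the DNAJC rows are full in Jinhua 2 with 9 genes called and nearly empty in Landrace 1 with 1. Over all genes, Jinhua 2 held 4468 and Landrace 1 held 3798. DNAJC3, DNAJC4 and DNAJC16 are members through Jinhua 2 alone. DNAJC1 and DNAJC14, called in all 4 animals but without a symbol in the lists, are not drawn.

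All 3 HSP90 genes were called in every animal. HSP90AB1, the constitutive cytosolic form (ENSSSCG00000001701, transcript ENSSSCT00000001901), had 3 peaks in each animal, yet their places differed between the breeds. A coding site at bases 1061 to 1230 in Jinhua 1 and 1101 to 1210 in Jinhua 2 held no Landrace peak. Another, at bases 1715 to 1869 in Landrace 1 and 1721 to 1869 in Landrace 2, held no Jinhua peak. The remaining peaks of all 4 animals lay in a coding stretch from base 1988 to 2354. Among the 34 chaperone genes with complete positions, HSP90AB1 was the only one with a site of each kind, and its number of peaks was the same in all 4 animals.

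HSP90B1, the form in the endoplasmic reticulum (ER), kept to sites shared by all 4 animals. So did HSP90AA1, the stress-inducible cytosolic form, apart from a second peak in Jinhua 2. HSP90B1 had 2 coding peaks in each animal. The later one covered bases 2378 to 2535 of ENSSSCT00000000926 in Jinhua 1 and 2373 to 2529 in Jinhua 2, against 2368 to 2523 in Landrace 1 and 2376 to 2526 in Landrace 2. Its earlier site spanned bases 32 to 276 over the 4 animals. HSP90AA1 had 1 peak starting at base 311 of ENSSSCT00000002815 in Jinhua 1 and both Landrace animals. In Jinhua 2 the peak ran from 309 to 475 and a second one, from 476 to 731, directly adjoined it, so the gene was counted with 2. No other list had a peak over bases 476 to 731, which count as shared only because adjoining peaks were joined.

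Of the 4 HSPA genes, 3 were called in every animal. HSPA9, the mitochondrial HSP70 that pulls proteins through the inner membrane (ENSSSCG00000014338), had 4 peaks in both Jinhua lists, 4 in that of Landrace 1 and 3 in that of Landrace 2. The peak missing from Landrace 2 was the first, which began at base 385 of ENSSSCT00000015665 in both Jinhua animals, ending at 575 in Jinhua 1 and 540 in Jinhua 2, and covered bases 421 to 574 in Landrace 1. The other 3 sites were shared by all animals, at bases 1257 to 1416, 1812 to 2035 and 2068 to 2240. At the last site the midpoints of the 4 peaks lay within 3 bases, yet the peak was annotated as coding sequence in Jinhua 2 and as 3′ UTR in the other lists.

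HSPA5, known as BiP, the HSP70 of the ER (ENSSSCG00000005601), had 2 and 3 peaks in Jinhua 1 and 2 and 3 and 2 in Landrace 1 and 2. Its coding sites at bases 859 to 1054 and 1670 to 1916 of ENSSSCT00000006159 were held by all 4 animals. The first site, at bases 92 to 328 in Jinhua 2 and 112 to 285 in Landrace 1, was absent from the other lists. HSPA4, a nucleotide exchange factor of the HSP110 type (ENSSSCG00000014292), had 3 and 5 peaks in Jinhua 1 and 2, against 2 and 1 in Landrace 1 and 2. The ranges did not overlap, but the share of all genes with counts parted in this way is not given here. A coding peak at bases 251 to 390 of ENSSSCT00000015615, with the same start and end in both Jinhua animals, had no counterpart in either Landrace list, where HSPA4 has all its positions. A site at bases 2668 to 2844 was common to all 4 animals, and one at bases 3198 to 3353, annotated as 3′ UTR where a location was stated, to all but Landrace 2. HSPA2, best known from testis, had 1 peak in Jinhua 1 alone.

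HSPH1, the HSP110 of the cytosol, and HSPD1, the mitochondrial chaperonin HSP60, were both called in each list but that of Landrace 2. HSPH1 had 1 coding peak, which ran from base 176 to 406 of ENSSSCT00000010229 in Jinhua 1 and from 181 to 356 in Jinhua 2, against 187 to 400 in Landrace 1. HSPD1 had 1 peak in Jinhua 1, 3 in Jinhua 2 and 1 in Landrace 1. All 3 animals shared its first site, between bases 183 and 360 of ENSSSCT00000017505, and the 2 others, the later in the 3′ UTR, were in Jinhua 2 alone. HSPE1, the partner of HSPD1, was not found by symbol in the lists.

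Among the small heat shock genes, HSPB2 and HSPB8 were called in all 4 animals, HSPB7 in both Jinhua animals and HSPB3 in Landrace 1. HSPB2, a muscle-enriched form that binds HSPB3 (ENSSSCG00000015027), had 1 coding peak in each animal, at bases 589 to 756 of ENSSSCT00000016391 in Jinhua 1 and 588 to 759 in Jinhua 2, against 589 to 744 in Landrace 1 and 587 to 743 in Landrace 2. The HSPB3 peak of Landrace 1 lay at bases 177 to 340 of ENSSSCT00000018401. HSPB7, abundant in heart and skeletal muscle (ENSSSCG00000021071), had a coding peak at bases 31 to 130 of ENSSSCT00000024081 in Jinhua 1 and 55 to 200 in Jinhua 2.

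HSPB8 (ENSSSCG00000009844) had 1 peak in either Jinhua list and 2 in either Landrace list, with no overlap between the breeds. For these counts too, the share of all genes parted in this way is not given here. Nearly the same bases were covered in all 4 animals, however. In Jinhua a single coding peak ran from base 1 to 341 of ENSSSCT00000010790 in Jinhua 1 and from 1 to 350 in Jinhua 2. In Landrace 1 the peaks covered bases 1 to 133 and 169 to 338, and in Landrace 2 they covered 1 to 132 and 145 to 330. The peaks were divided by a gap of 35 bases in Landrace 1 and of 12 bases in Landrace 2.

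**Figure D2:**
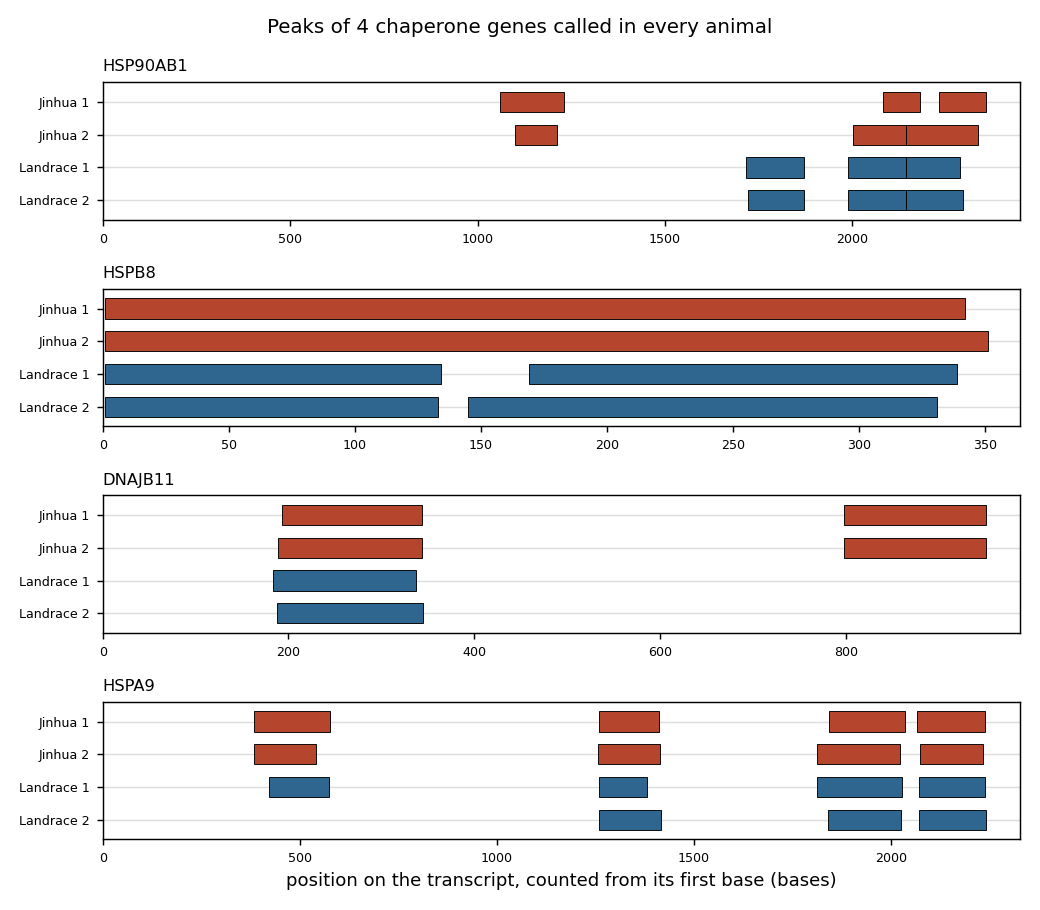
Peaks of HSP90AB1, HSPB8, DNAJB11 and HSPA9, each called in every animal, as bars along the transcript (x axis, position in bases from the first base, own scale per gene), with Jinhua 1 and 2 in red above Landrace 1 and 2 in blue. HSP90AB1 has a site near the middle in Jinhua only and one further on in Landrace only, HSPB8 has 1 long bar in Jinhua and 2 shorter ones in Landrace, and DNAJB11 has a second site in Jinhua only.

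The 4 DNAJA genes, the J-domain proteins closest to bacterial DnaJ, were nearly all shared, with DNAJA2, DNAJA3 and DNAJA4 in all 4 animals and DNAJA1 in all but Landrace 2. DNAJA2, a cytosolic partner of HSP70 (ENSSSCG00000002846), had a single coding peak within bases 44 to 206 of ENSSSCT00000003147 in every animal, and its midpoints lay within 6.5 bases. DNAJA3, the mitochondrial form, had 2 peaks in both Jinhua lists and in that of Landrace 1, and 3 in that of Landrace 2. The site at bases 662 to 832 of ENSSSCT00000025145 was held by all 4. DNAJA4 had 2 and 1 peaks in Jinhua 1 and 2 and 3 and 1 in Landrace 1 and 2. Its shared site, at bases 1094 to 1258 of ENSSSCT00000001965, was annotated as 3′ UTR in each list. The DNAJA1 site of 3 animals lay at bases 1122 to 1299 of ENSSSCT00000012042, in coding sequence, and Landrace 1 had another peak in the 5′ UTR.

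Of the 6 DNAJB genes, DNAJB2, DNAJB5 and DNAJB11 were called in all 4 animals. DNAJB11, an ER partner of HSPA5 (ENSSSCG00000011798), had 2 peaks in either Jinhua list and 1 in either Landrace list. As for HSPA4 and HSPB8, the share of all genes with counts parted in this way is not given here. The shared peak lay in the 5′ UTR, within bases 183 to 344 of ENSSSCT00000012910. The other, at bases 798 to 950 with the same start and end in both Jinhua animals, lay in coding sequence and was in neither Landrace list. DNAJB5 (ENSSSCG00000005297) had 5 peaks in both Jinhua animals, against 4 in Landrace 1 and 5 in Landrace 2. A 5′ UTR site at bases 42 to 159 of ENSSSCT00000005834 and coding sites at 1117 to 1285 and 1572 to 1909 were common to all. DNAJB2 had 1 coding peak in each animal, between bases 866 and 1154 of ENSSSCT00000017658, whose midpoints spread over 85 bases, the widest spread of the sites held by all 4 with 1 peak each.

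DNAJB9, an ER J-domain protein induced by unfolded proteins (ENSSSCG00000016653), had 1 and 2 peaks in Jinhua 1 and 2 and none in Landrace. Its common site covered bases 711 to 864 of ENSSSCT00000018131 in Jinhua 1 and 711 to 852 in Jinhua 2. DNAJB12, a J-domain protein of the ER membrane, had 1 peak in Jinhua 2 and 3 in Landrace 2, sharing a 3′ UTR site at bases 2391 to 2550 of ENSSSCT00000011260. DNAJB4, a cytosolic form, was called in Landrace 1 alone.

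The DNAJC genes differed most in calls between lists. Of the 9, 4 were called in Jinhua 1 and all in Jinhua 2, against 1 in Landrace 1 and 3 in Landrace 2. Of all 5650 genes, 3863 and 4468 were called in Jinhua 1 and 2, against 3798 and 3647 in Landrace 1 and 2. A peak in any list made a gene a member, and DNAJC3, DNAJC4 and DNAJC16 entered through Jinhua 2 alone. DNAJC1 and DNAJC14, outside the 9 for want of a symbol in the lists, were called in all 4 animals. DNAJC7, a co-chaperone that binds both HSP70 and HSP90 (ENSSSCG00000017419), was the only one of the 9 called in all 4, with 2 and 1 peaks in Jinhua 1 and 2 and 2 in each Landrace animal. Its coding site at bases 1168 to 1481 of ENSSSCT00000018963 was held by all animals, and that at bases 111 to 264 by all but Jinhua 2.

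DNAJC21, which acts in the assembly of the large ribosomal subunit (ENSSSCG00000016828), had 2 coding peaks in each Jinhua animal and none in Landrace. The first lay at bases 195 to 300 of ENSSSCT00000018323 in Jinhua 1 and 169 to 322 in Jinhua 2, and the second at 779 to 1100 and 805 to 1030. DNAJC19, part of the motor that imports proteins into mitochondria (ENSSSCG00000011770), had 1 coding peak, at bases 56 to 211 of ENSSSCT00000012882 in Jinhua 1 and 29 to 183 in Jinhua 2. DNAJC18 (ENSSSCG00000014356) had 1 peak, annotated as 3′ UTR, that covered bases 769 to 900 of ENSSSCT00000015685 in Jinhua 1 and 766 to 900 in Jinhua 2. DNAJC3, an inhibitor of the ER stress kinase PERK, DNAJC4 and DNAJC16 had 1 peak each in Jinhua 2 alone. DNAJC8 and DNAJC17, both associated with splicing, had 1 peak each in Jinhua 2 and Landrace 2. The DNAJC17 peaks overlapped, whereas those of DNAJC8 lay apart, at bases 1252 to 1400 of ENSSSCT00000029698 in the 3′ UTR in Jinhua 2 and at 571 to 707 in coding sequence in Landrace 2.

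**Figure D3:**
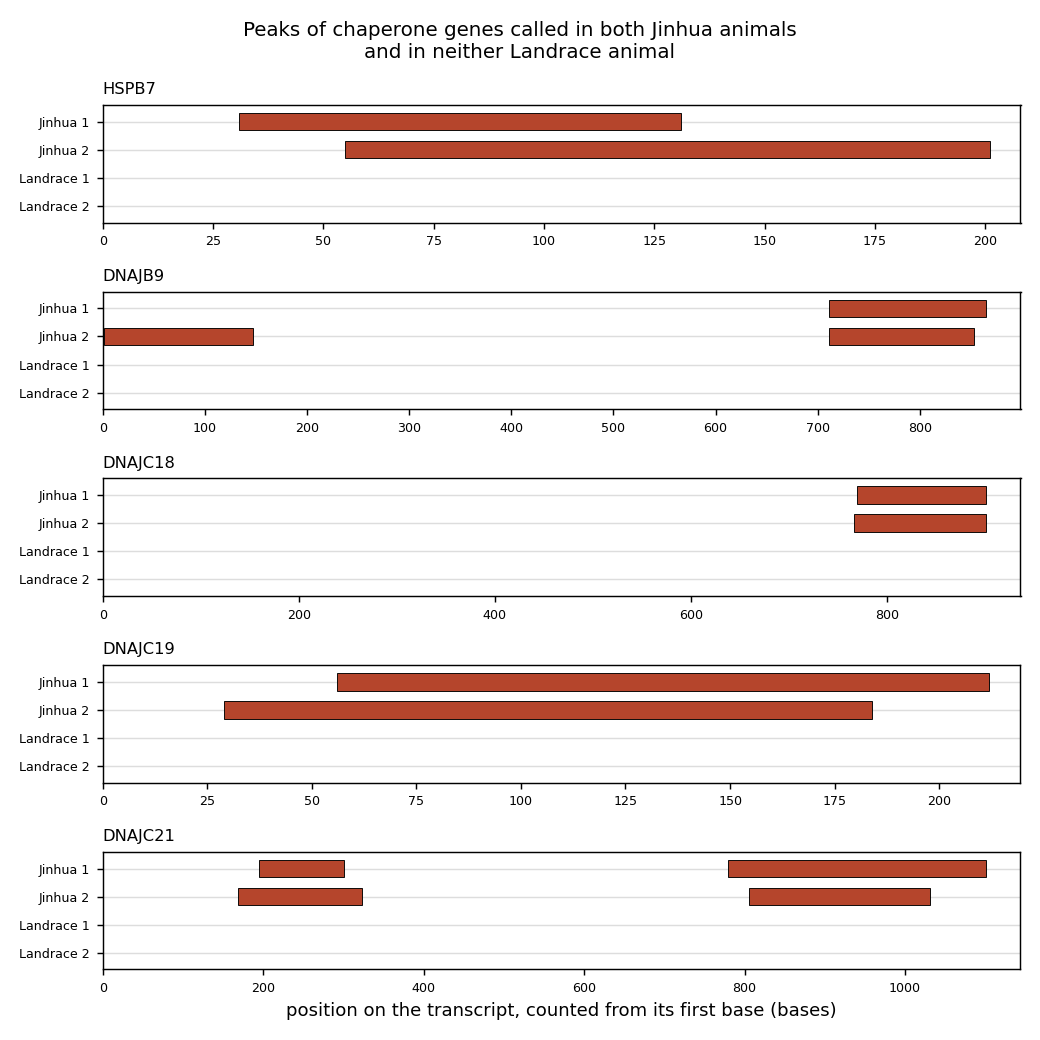
Peaks of HSPB7, DNAJB9, DNAJC18, DNAJC19 and DNAJC21 as bars along the transcript (x axis, position in bases from the first base, own scale per gene) for Jinhua 1 and 2 above Landrace 1 and 2. Each gene has at least 1 site where the bars of both Jinhua animals overlap, and the Landrace rows are empty.

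Of the 5 BAG genes, BAG1 and BAG6 were called in all 4 animals. BAG6, which guides misplaced membrane proteins to degradation (ENSSSCG00000001410), had the most peaks of the chaperone genes, with 5 and 6 in Jinhua 1 and 2 and 6 in each Landrace animal. All stated locations were coding. Sites at bases 845 to 1112 and 1981 to 2351 of ENSSSCT00000001542 were held by all 4. A site at bases 3423 to 3560 held a peak in both Landrace animals and none in Jinhua 1, but 2 BAG6 peaks of Jinhua 2 and 2 of Landrace 1 have no position, so its absence from Jinhua 2 is not known. BAG1 (ENSSSCG00000010996) had 1 coding peak in each animal, within bases 356 to 520 of ENSSSCT00000012037 and with midpoints within 2 bases, and Landrace 2 had another in the 3′ UTR. BAG3, the partner of HSPB8 (ENSSSCG00000010686), had 1 peak in both Jinhua lists and 2 in Landrace 2 but none in Landrace 1. The shared coding site covered bases 177 to 423 of ENSSSCT00000011687 in Jinhua 1 and 182 to 450 in Jinhua 2, against 180 to 414 in Landrace 2. BAG2 and BAG5 had 1 peak each in Jinhua 2 and Landrace 2.

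Over the families, 17 of the 37 genes (45.9%) were called in all 4 animals, against 43.8% of all called genes. A further 4 were called in 3 animals, 10 in 2 and 6 in 1, the last being 16.2% against 24.3% of all called genes. Calls in both Jinhua animals and none in Landrace were seen for HSPB7, DNAJB9, DNAJC18, DNAJC19 and DNAJC21, 5 of 37 (13.5%), against 5.15% of all called genes. Leaving out Jinhua 1 or Landrace 1 gave 8, since a single list then decides for the breed. No chaperone gene was called in both Landrace animals and absent from both Jinhua lists, against 2.42% of all called genes, and 2 met this with Landrace 2 left out. In Jinhua 2 and Landrace 2 only, 5 of 37 genes (13.5%) were called, DNAJB12, DNAJC8, DNAJC17, BAG2 and BAG5. The share of all called genes with this pattern is not given here, so whether it is unusual for chaperone genes was not tested. Genes called in exactly 2 of the 4 lists, over every pair of lists, made up 27.03% of chaperone genes and 15.9% of all called genes. That is a different share from the one for Jinhua 2 and Landrace 2 only. No test of these shares was made, because genes are not replicates of a breed.

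By place on the transcript, peaks of the 34 genes with complete positions formed 58 sites, a site being a stretch of overlapping or directly adjoining peaks over the 4 lists. All 4 animals held 18 sites (31.0%), against 27.1% of the 9414 sites of all genes with complete positions. A single animal held 17 (29.3%), against 39.3%. Both Jinhua animals but no Landrace animal held 8 sites (13.8%), against 5.59% of all sites, in the 5 genes above with 2 in DNAJC21, and in HSP90AB1 and DNAJB11. Without Jinhua 1 the count was 15. Both Landrace animals but no Jinhua animal held 1 site (1.72%), that of HSP90AB1, against 3.38% of all sites. This count was 6 without Landrace 1, 5 without Landrace 2 and 3 without Jinhua 1. HSPA4, DNAJB5 and BAG6 are outside these counts, since they had more than 4 peaks in a list and 2 lists give at most 4 positions.

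**Figure D4:**
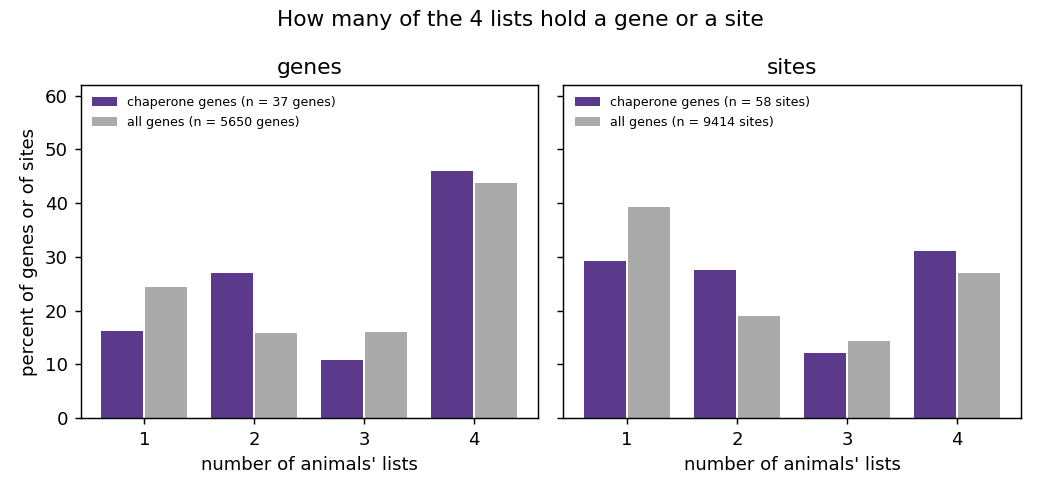
Percent of genes (left) and of sites (right) found in 1, 2, 3 or 4 of the lists (x axis), for chaperone genes in purple and all genes in grey. The bars for 4 lists stand close together, at 45.9% and 43.8% of genes and 31.0% and 27.1% of sites, and chaperone genes have the higher bar at 2 lists in both panels.

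Most peaks of chaperone genes were coding in each of the lists. Coding sequence held 87.8% and 87.0% of those with a stated location in Jinhua 1 and 2 and 85% and 84.8% in Landrace 1 and 2. The same shares over all genes were 68.8% and 71.2% in the Jinhua lists and 70.2% and 71.3% in the Landrace lists. In the 3′ UTR lay 4 of 49 peaks for Jinhua 1 (8.16%, with a 95% Wilson interval of 3.22 to 19.2) and 5 of 54 for Jinhua 2 (9.26%, 4.02 to 19.9). For Landrace 1 there were 3 of 40 (7.50%, 2.58 to 19.9) and for Landrace 2 5 of 46 (10.9%, 4.73 to 23). Over all genes the 3′ UTR held 24.3% and 21.3% in the Jinhua lists and 21.2% and 21.6% in the Landrace lists. The chaperone share was below that of all genes in each list, and the interval reached the value of all genes in Landrace 2 only. Several peaks lie in 1 gene, and the intervals cover counting error only. How much of each transcript model is untranslated is not used here, so its part in the difference was not tested.

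The 3′ UTR peaks belonged to BAG1, DNAJA4, DNAJB12, DNAJC8, DNAJC18, HSPA4, HSPA9 and HSPD1, and those of the 5′ UTR to DNAJA1, DNAJB5, DNAJB9 and DNAJB11. Between breeds the mean 3′ UTR share was 8.71% ± 0.775 for Jinhua and 9.18% ± 2.38 for Landrace (SD, n = 2 each; exact permutation test, p = 1), with the difference of -0.474 percentage points turning to 0.0745 without Jinhua 1 and to 1.21 without Landrace 2. Locations of at most 3 peaks per gene are given in the lists of Jinhua 2 and Landrace 1, and the difference was 0.902 points over genes that have at most 3 peaks in every list.

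**Figure D5:**
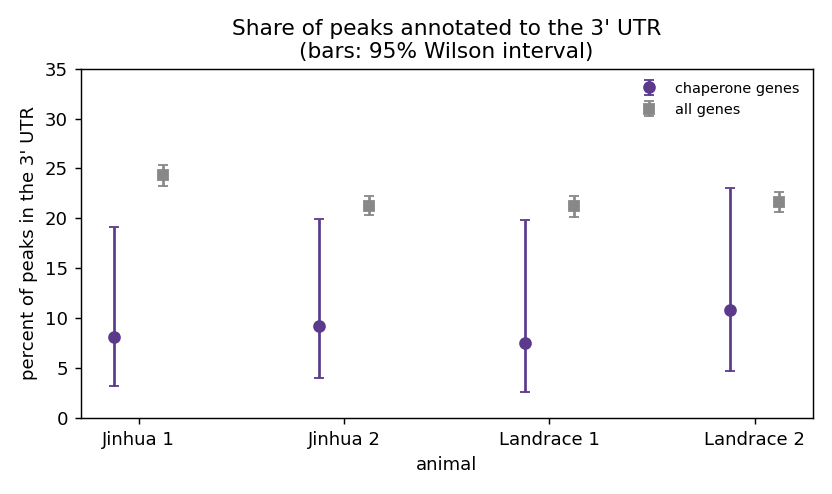
Percent of peaks annotated to the 3′ UTR (y axis) in each animal (x axis), for chaperone genes (purple circles) and all genes (grey squares), with 95% Wilson intervals as bars. The purple circles lie between 7.50% and 10.9% and the grey squares between 21.2% and 24.3%.

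Where all 4 animals held a site with 1 peak each, the peaks of chaperone genes lay close together. Over 15 such sites the 4 midpoints spanned a median of 11 bases, against 23.5 bases over 2123 such sites of all genes. Peak width did not set the chaperone genes apart, with medians of 158 and 156 bases in Jinhua 1 and 2 and 156 in each Landrace list, against 156 to 159 over all genes. In the 34 genes with complete positions, 88.9% of the 36 peaks of Jinhua 1 shared a site with Jinhua 2, and 71.7% of the 46 peaks of Jinhua 2 shared one with Jinhua 1, against 74.8% and 62.2% over all genes. Of the 33 peaks of Landrace 1, 69.7% shared a site with Landrace 2, and of the 34 peaks of Landrace 2, 67.6% with Landrace 1, against 68.3% and 71.7% over all genes. Sharing was not always higher within a breed. Landrace 1 shared more of its peaks with Jinhua 1 (81.8%) and Jinhua 2 (75.8%) than with Landrace 2, and Landrace 2 shared 67.6% with Jinhua 1 and 76.5% with Jinhua 2. Over all genes, Landrace 1 shared 67.8% with Jinhua 1 and 69.97% with Jinhua 2, and Landrace 2 shared 70.9% and 72.3%. Each Landrace list thus shared more with Jinhua 2 than with the other Landrace list over all genes too. Jinhua 2 was also the longest list here, with 6585 peaks against 5439 in Jinhua 1, 5431 in Landrace 1 and 5176 in Landrace 2. The shares are not adjusted for list length, and its part was not tested. Jinhua 1 shared 72.2% with Landrace 1 and 61.1% with Landrace 2, and Jinhua 2 shared 54.3% and 56.5%, both less than with the other Jinhua animal. Over all genes these shares were 67.1% and 66.7% for Jinhua 1 and 57.6% and 56.6% for Jinhua 2. They too were less than with the other Jinhua animal. A peak began at base 1 of the transcript in HSPB8, DNAJA4 and DNAJB9, which is 8.82% of the 34 genes, against 12.8% of all genes with complete positions.

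Some well-known family members carry no symbol in the lists and so fall outside the rule. The gene name table adds 6, of which HSPA8, HSPB6, DNAJC1 and DNAJC14 were called in all 4 animals, DNAJB1 in all but Landrace 2 and HSPA12B in Landrace 1 alone. HSPA8, the constitutive cytosolic HSP70 (ENSSSCG00000015140), had 2 coding peaks in each animal, at bases 613 to 781 and 911 to 1065 of ENSSSCT00000016506. Midpoints of the second lay within 0.5 bases. DNAJB1, the main stress-inducible J-domain partner of HSP70, had its peak between bases 71 and 331 of ENSSSCT00000015061. With these 6 genes the number called in all 4 animals was 21 of 43, and the genes called in Jinhua only remained the same 5. A symbol in the lists that begins with HSP70 is outside the prefixes too, and its peaks are not described here. Of 78 family symbols in the RefSeq annotation of Sscrofa11.1, 37 (47.4%) matched a gene named in the lists, against 25.6% of 16509 named protein-coding symbols. With the gene name table as well, 43 (55.1%) matched a gene with a peak, against 28.4% of all. Expression was not measured separately in these lists, so its part in that share was not tested.

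Other proteostasis genes were followed through a list of 82 symbols without these prefixes. Of these, 55 were called, 31 of them (56.4%) in all 4 animals, against 43.8% of all called genes. These include the co-chaperone STIP1, which links HSP70 to HSP90, with 5 and 4 peaks in Jinhua 1 and 2 and 4 in each Landrace animal, the ubiquitin ligase STUB1, the myosin chaperone UNC45B and the small heat shock protein CRYAB. All 6 called ER folding genes and 4 of 6 called subunits of the TRiC chaperonin were in all lists. SGTA, CCT4, PFDN1 and CLPX, 4 of 55 (7.27%), were called in both Jinhua animals but not in Landrace, against 5.15% of all called genes, and 0 the other way, against 2.42%. HSF1, the main transcription factor of the heat shock response, had 1 peak in Jinhua 2 and 1 in Landrace 2.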

How the data were processed

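Per the labels' protocols, muscle mRNA was isolated with TRIzol and Dynabeads, sheared by sonication for the IP with an m6A antibody, and sequenced from stranded libraries. TopHat2, version 2.0.14, is named in the submitters' processing notes, as are Sscrofa10.2 and susScr3. For the peak calling and the transcript annotation, tools and settings are not given in these sources. Per the file headers, each deposited list gives a count of peaks per gene and, as other columns, the start, end and location of each peak, 1-based on the transcript. Each animal has its own list, so replicates were not pooled. Per the labels the animals of a breed are separate males.

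Symbols came from the lists. All 37 genes matched the rule by symbol, and 28 have an entry in the gene name table with the same symbol. Of 1180 identifiers without a symbol the table names 520. Results by site use the 5422 genes with at most 4 peaks in every list and leave out 228. For peaks beyond the 14th of a gene, 30 columns of Landrace 2 were not used, which touches no chaperone gene. Breed means were compared by exact permutation over animals (Python 3.11.15, scipy 1.17.1). Positions are described for genes or sites parting the breeds and for up to 3 genes per family with most peaks called in all 4 animals. Outside that rule, positions are also given for some other genes, among them HSPB3, HSPH1, HSPD1, DNAJA1, DNAJB12, DNAJC8 and BAG3. The merging of peaks was tested on simulated lists. Genes and gene lists were chosen with earlier results of these data known. The alternatives were leaving out each animal, pairing animals by number, a minimum width of 100 bases, an overlap of 50% of the shorter peak, joining peaks within 50 bases, and added symbols.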

Additional observations from a re-analysis of the deposited data

How the results depend on the processing

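With 2 animals per breed no test could pass a threshold of 0.05, so only directions and counts were followed. The differences in genes called, peaks and share of listed peaks stayed positive (Jinhua minus Landrace) in every alternative run, at 4.5 to 11.5 genes, 3.5 to 16.5 peaks and 0.0369 to 0.0863 percentage points with 1 animal left out. The 3′ UTR difference turned sign, with a range of -2.16 to 1.21 points with 1 animal left out and 0.902 over genes that have at most 3 peaks in every list, an alternative added after the data had been seen. Pairing animals by number as a replicate block left the differences at 8 genes, 10 peaks, 0.0616 and -0.474 points, with a smallest possible sign-flip p of 0.5. The numbers were not shown to pair the animals. With 1 animal left out, genes called in Jinhua only numbered 6 to 8 and in Landrace only 0 to 2, and sites 9 to 15 and 1 to 6. Fewer lists then decide, so these counts grow by construction. No chaperone peak was under 100 bases wide, so the minimum width could not change the counts of sites or of breed-specific genes. Added symbols left the breed-specific counts of genes as they were, and overlap, joining and added symbols those of sites. Sites of all 4 animals numbered 17 to 19 under width, overlap and joining and 24 with added symbols, which for sites was also tried after the data had been seen. No list gives enrichment, so a stricter peak threshold could not be tried.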

Other observations

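In the 37 genes named in the lists, chaperone peaks with exactly the same start and end in 2 lists lay between animals of 1 breed. HSPA4 and DNAJB11 gave 2 such peaks between the Jinhua lists, and HSP90AA1, HSP90AB1, DNAJA4 and DNAJB5 gave 4 between the Landrace lists, which is 3.45% to 4.08% and 8.70% to 9.30% of the located chaperone peaks of each list. The 4 pairs of lists from different breeds gave 0 in these genes, but 2 once the 6 genes named by the gene name table were added, both between Jinhua 2 and Landrace 2, in HSPA8 at bases 911 to 1064 and in HSPB6 at bases 381 to 490. Over all genes such peaks numbered 164 between the Jinhua lists and 307 between the Landrace lists, and 133 to 185 between lists of different breeds, so they were not confined to 1 breed there.

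Location was stated differently between lists at 1 of the 40 chaperone sites with 2 or more stated locations (2.50%), that of HSPA9 at bases 2068 to 2240, against 7.04% of such sites over all genes.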
